A study of Mus musculus with 6 samples.

Results

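Aldehyde dehydrogenases (ALDHs) oxidise aldehydes to acids with NAD or NADP, and their combined activity on a fluorescent substrate is the basis of a widely used stem cell assay, in which bright cells are sorted as candidate stem or tumour-initiating cells. The assay reads enzyme activity and not any single gene, so which isoforms a cell line transcribes bears on what it can detect. The class 1A enzymes also make retinoic acid from retinal, the step that gives cells the ligand of the retinoic acid receptors. A set of 10 ALDH genes linked to this assay was taken by name (Aldh1a1, Aldh1a2, Aldh1a3, Aldh1a7, Aldh1b1, Aldh2, Aldh3a1, Aldh3a2, Aldh3b1 and Aldh7a1), and all 18 probes whose platform symbol was one of these names were used, of 45281 probes on the array. Each of the 10 genes had at least 1 probe.

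The samples were 3 arrays of CD133+ cells and 3 arrays of CD133- cells of KPC001, a single mouse pancreatic cancer line from the KPC mouse model. The cells were grown in serum-containing high-glucose medium without treatment, the labels of both populations carry the same note on tumour initiation, and how cells were separated by CD133 is not given in the sources used. Total RNA was amplified into biotin-labelled cRNA and hybridised to Illumina mouse whole-genome bead arrays in 1 colour. The labels do not say whether the replicates are separate cultures or sorts, and p-values here reflect the spread among these 6 samples alone, which may be technical.

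Between 17123 and 18057 probes per array were detected, meaning a detection p under 0.05 against the negative controls, and a probe was read from a median of 37 to 41 beads. Levels are log2 intensities after background correction and quantile normalization. Differences are CD133+ minus CD133-, and passing means an adjusted p under 0.05 by limma over all 17219 tested probes, those detected on at least 3 of 6 arrays. Prom1, which encodes CD133, was detected by 0 of its 3 probes on any array, and the labels could not be checked on it. Of 10 epithelial and ductal markers, 9 had a probe and 7 were detected on all 6 arrays (Krt8, Krt18 and Krt19 among them), while Epcam was detected on 0 arrays. Krt18 had -0.21 ± 0.08 (SE, adjusted p = 0.259), and the brighter tested probe of Cdh1 had -0.12 ± 0.13 (adjusted p = 0.691). The dimmer Cdh1 probe was detected on 3 CD133+ and 0 CD133- arrays, so it met the filter through the CD133+ arrays alone and no difference is given.

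KPC001 cells of both populations gave signal above background on every array for 6 of the 10 ALDH genes, and none of the 10 differed past the threshold between CD133+ and CD133- cells. Aldh1a1, Aldh1a3, Aldh2, Aldh3a1, Aldh3a2 and Aldh3b1 each had a probe detected on all 6 arrays. Aldh1a7 and Aldh1b1 lay at the edge of detection, and Aldh1a2 and Aldh7a1 were too dim to be tested. Of the 18 probes, 10 were detected on all 6 arrays, 4 on some and 4 on none. The filter left 12 probes of 8 genes to be tested, and 0 of 12 passed, where 1.53% of all tested probes did (1.25% higher and 0.279% lower). At an unadjusted p under 0.05 there was 1 of 12, against 16.6% of all tested probes. The tested ALDH probes had a median difference of -0.03 and a median absolute difference of 0.09, beside -0.02 and 0.13 over all tested probes. Fewer expressing cells and less RNA per cell cannot be told apart in such bulk samples.

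**Figure D1:**
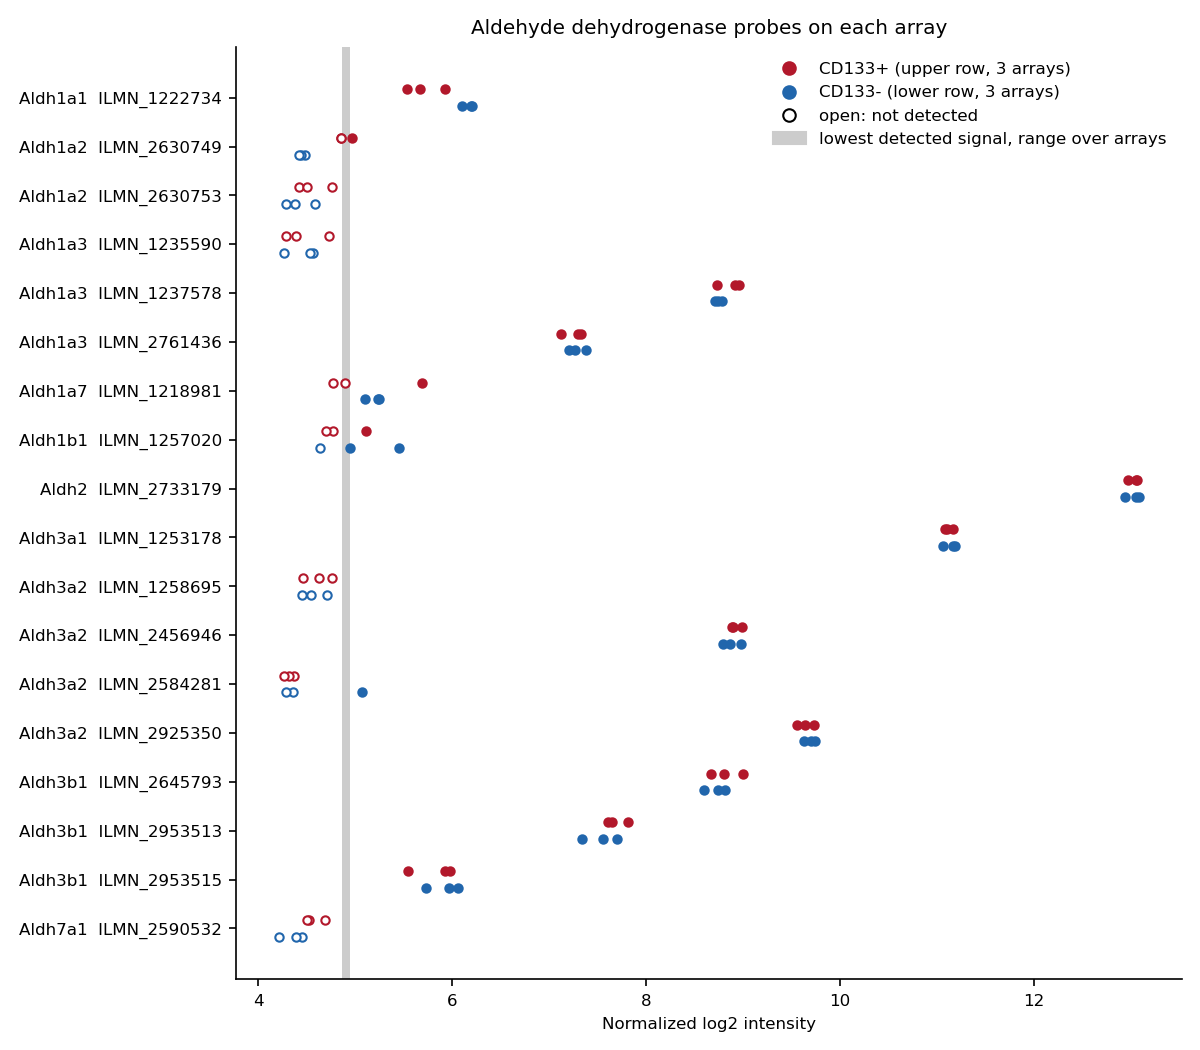
Normalized log2 intensity (x axis) of each of the 18 ALDH probes on the 3 CD133+ arrays (red, upper row of each probe) and the 3 CD133- arrays (blue, lower row). Open points were not detected, and the grey band spans the lowest detected signal of the 6 arrays, 4.86 to 4.94. Aldh1a1 and 9 other probes are detected throughout, and of these 10 only Aldh1a1 has groups that do not overlap.

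Among the retinal-oxidising class 1A enzymes, Aldh1a1, the cytosolic isoform most often named for the stem cell assay, was detected on every array but at low signal. Its single probe, ILMN_1222734, had log2 intensities of 5.93, 5.66 and 5.53 on the CD133+ arrays, against 6.19, 6.21 and 6.10 on the CD133- arrays. All 3 CD133+ arrays lay below all 3 CD133- arrays, with a gap of 0.17 between the groups. The means were 5.71 ± 0.20 in CD133+ and 6.17 ± 0.06 in CD133- cells (SD, n = 3 each), a difference of -0.46 ± 0.12 (SE) with a 95% interval of -0.73 to -0.19. That is 0.727 times the CD133- level, with an interval of 0.602 to 0.877. Aldh1a1 did not pass (limma adjusted p = 0.109, unadjusted p = 0.00475), and it was 749th of 17219 tested probes in order of p. It was the 1 tested ALDH probe of 12 whose groups did not overlap, where groups failed to overlap for 23.1% of all tested probes in either direction and for 11.6% with CD133+ below CD133-.

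The size of the Aldh1a1 difference was set in part by the background correction, since the deposited signal was just 1.27 to 1.55 times the background of its array. It was -0.18 without background correction, -0.17 with the authors' processed intensities and -0.29 with an offset of 50. It was below 0 in each of 17 other settings and passed in 0 of them, with adjusted p between 0.0529 and 0.249. The lowest adjusted p came with the strictest filter, detection at 0.01 on all 6 arrays. Within groups, the uncorrected log2 signal of this probe varied 0.747 times as much as the error between its 36 to 49 beads.

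**Figure D2:**
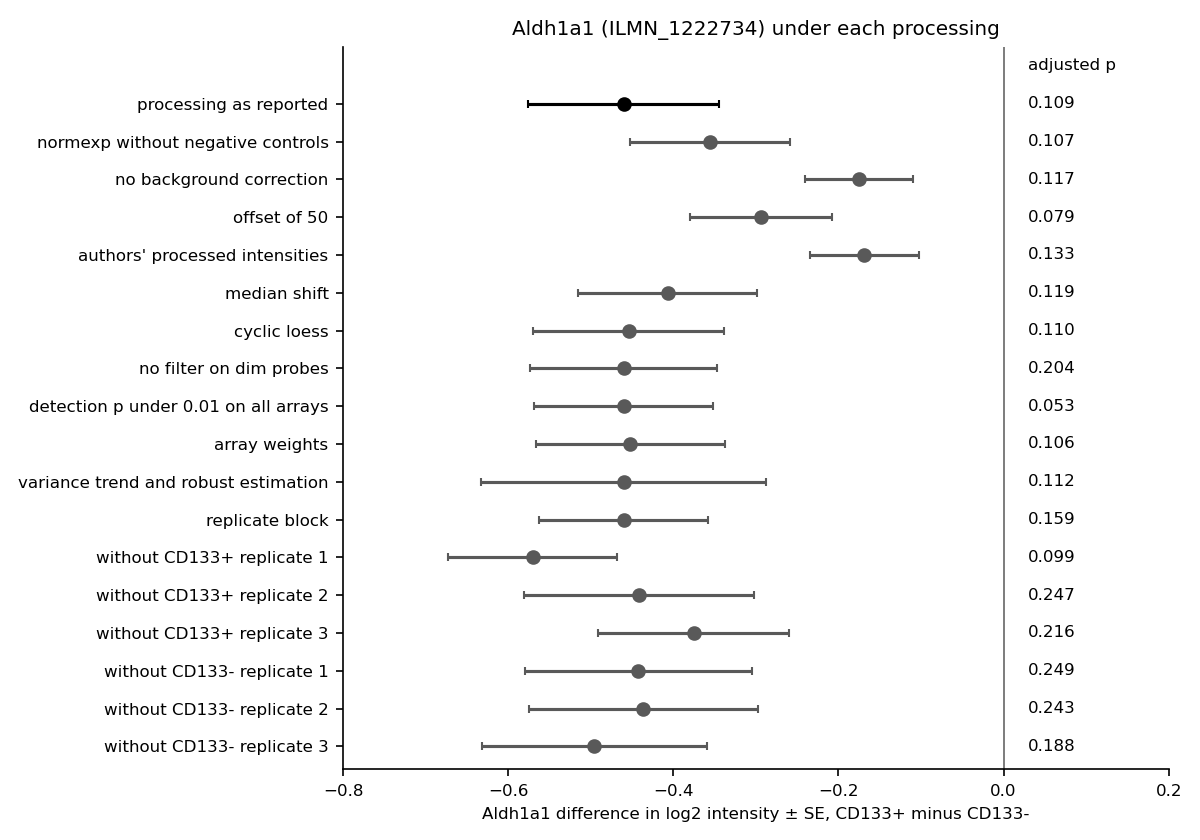
Difference of the Aldh1a1 probe in log2 intensity (x axis, CD133+ minus CD133-, ± SE) under the reported processing (top row) and 17 other settings, with the adjusted p of each at the right. Every difference lies below 0, from -0.57 to -0.17, and every adjusted p is above 0.05.

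Markers of other cell types were mostly at background and partly ran in the same direction as Aldh1a1. Of 7 leukocyte markers with a probe 2 were tested, and their summed background-corrected intensity over the 7 genes was 52.5 to 71.9 on CD133+ arrays and 76.8 to 85.6 on CD133- arrays. Fcer1g, an Fc receptor subunit of myeloid cells, was detected on 3 CD133- arrays and 0 CD133+ arrays. It met the filter through the CD133- arrays alone and its CD133+ level is only bounded, so no difference is given. The defining leukocyte marker Ptprc was detected by 1 of its 4 probes, on 1 CD133+ array. Of 10 fibroblast and stellate markers 2 were tested, with sums of 230 to 267 on CD133+ and 277 to 300 on CD133- arrays, and the probes of Pdgfra and Dcn were detected on 0 CD133+ arrays and at most 1 CD133- array each. Col1a1, a collagen of fibroblasts, was detected on all 6 arrays and had -0.27 ± 0.13 (adjusted p = 0.348). Its groups did not overlap, as for 23.1% of all tested probes. The brightest probe of Acta2 had -0.02 (adjusted p = 0.915), and its dimmer tested probes had 0.02, 0.22 and 0.29. On the last of these (ILMN_2710354, SE 0.14, adjusted p = 0.362) all CD133+ arrays lay above all CD133- arrays. The sums over 10 endothelial genes (219.8 to 237.8 on CD133+, 205 to 224 on CD133- arrays) and 8 acinar and endocrine genes (118 to 158 on CD133+, 128 to 154 on CD133- arrays) overlapped. Within the endothelial list Eng was detected on 3 CD133- arrays and 0 CD133+ arrays. It too met the filter through the CD133- arrays alone, so no difference is given. Of 4 tested endothelial genes, 3 had a difference above 0 on their brightest probe (Egfl7 0.09, Kdr 0.06 and Esam 0.01). The dimmer tested probe of Egfl7 had -0.03. The sum over 9 epithelial markers was 23706 to 24601 on CD133+ and 25736 to 26470 on CD133- arrays. None of these marker genes passed, and the part of any of them in the Aldh1a1 difference was not tested.

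Aldh1a7, a rodent paralogue of Aldh1a1 and its neighbour on mouse chromosome 19, was detected on 1 of 3 CD133+ and 3 of 3 CD133- arrays. Its probe had 5.68, 4.90 and 4.77 on the CD133+ arrays and 5.24, 5.11 and 5.24 on the CD133- arrays. CD133+ replicate 1 was the highest of the 6 arrays and the other CD133+ arrays were the lowest, so the groups overlapped. The difference was -0.08 ± 0.22 (adjusted p = 0.897), with an interval of -0.60 to 0.45 that covers the Aldh1a1 difference. Within groups this probe varied 1.92 times as much as its bead error. The CD133+ arrays decided its value: it was -0.36 without CD133+ replicate 1 (adjusted p = 0.213), 0.03 without replicate 2 and 0.10 without replicate 3. Probe sequences were not used here, so signal shared between Aldh1a1 and Aldh1a7, which are similar in sequence, cannot be told apart.

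Aldh1a3, another retinal-oxidising isoform, was detected on every array by 2 of its 3 probes. ILMN_1237578, designed on a cDNA clone, had 8.96, 8.74 and 8.92 in CD133+ and 8.75, 8.78 and 8.71 in CD133- cells, and lay at 4.28 to 5.24 times background. ILMN_2761436, designed on the RefSeq transcript, had 7.33, 7.12 and 7.30 in CD133+ and 7.20, 7.27 and 7.38 in CD133- cells. The groups overlapped on both probes. The differences were 0.12 ± 0.09 (95% interval -0.09 to 0.34, adjusted p = 0.550) and -0.04 ± 0.10 (-0.26 to 0.19, adjusted p = 0.889). The probe designed on another cDNA clone, ILMN_1235590, was not detected on any array. Over both detected probes the intervals thus ran from -0.26 to 0.34 on the log2 scale.

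Aldh1a2, the isoform known for retinoic acid synthesis in the embryo, was detected on 1 array by 1 of its 2 probes. ILMN_2630749 had 4.86, 4.85 and 4.96 on the CD133+ arrays, of which replicate 3 was detected, and 4.48, 4.44 and 4.42 on the CD133- arrays, where it was at background. The CD133+ arrays all lay above the CD133- arrays, with detection p of 0.0246 to 0.0705 in CD133+ and 0.460 to 0.612 in CD133- cells. No difference or fold is given, because the CD133- level is only bounded. This probe was too dim for the main test, and in a test of all 45281 probes its adjusted p was 0.0865. The second probe, ILMN_2630753, was not detected on any array and its groups overlapped. Of the 6 ALDH probes that were not tested, 2 had groups that did not overlap, beside 10.2% of all probes not tested. With Aldh1a1 that made 3 of 18, beside 15.1% of all probes on the array.

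**Figure D3:**
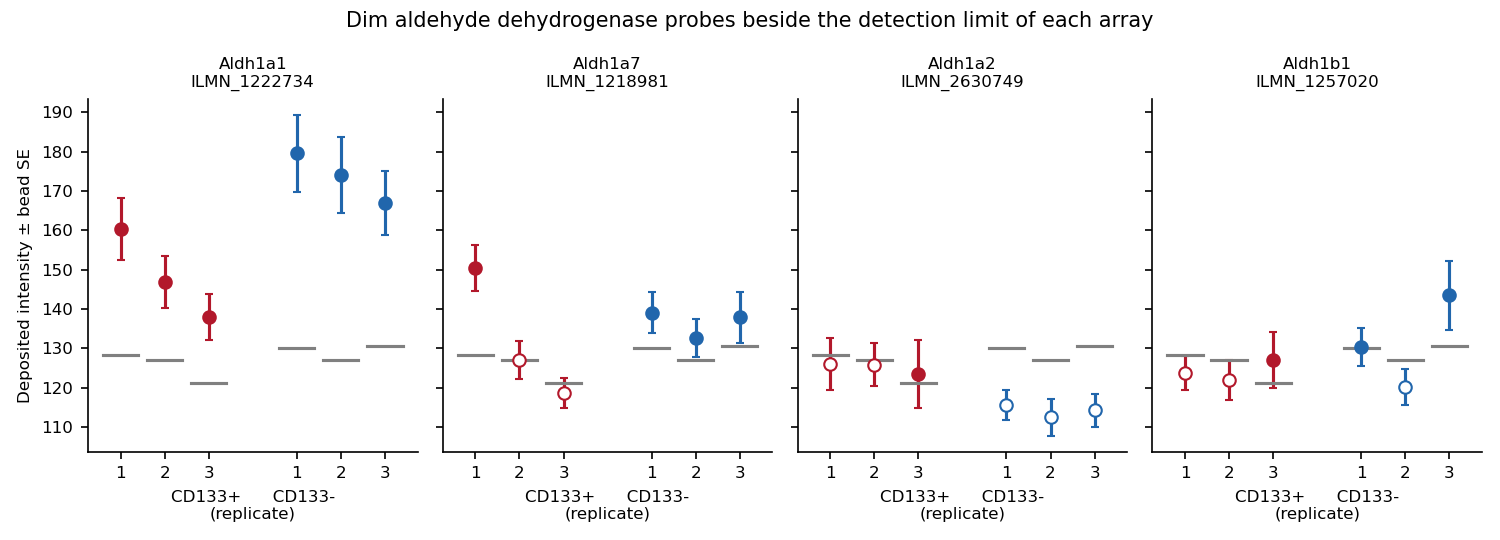
Deposited, uncorrected intensity (y axis, linear, not starting at 0) of the dim Aldh1a1, Aldh1a7, Aldh1a2 and Aldh1b1 probes on each CD133+ (red, left) and CD133- array (blue, right), with the standard error over beads. Open points were not detected and grey bars mark the lowest detected intensity of each array, 121 to 131. Aldh1a1 stands above the bars on all 6 arrays, and each of the other genes falls below them on at least 1 array.

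Aldh2 and Aldh1b1 are mitochondrial enzymes. Aldh2, which clears acetaldehyde, gave a strong signal in both populations. It had 13.05, 13.06 and 12.98 in CD133+ and 13.09, 13.05 and 12.94 in CD133- cells, at 67.0 to 85.9 times background. The arrays of the 2 populations interleaved, and the difference was 0.00 ± 0.08 (95% interval -0.19 to 0.20, adjusted p = 0.988). The interval corresponds to 0.875- to 1.15-fold. Within groups the signal varied 1.06 times as much as the bead error.

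Aldh1b1, an acetaldehyde and retinal dehydrogenase that marks centroacinar and progenitor-like cells of the mouse pancreas, was at the detection limit. Its probe had 4.77, 4.70 and 5.11 in CD133+ and 4.94, 4.64 and 5.46 in CD133- cells, and 1 CD133+ and 2 CD133- arrays detected it. Both groups spread from background to low signal, and they overlapped. The difference of -0.15 ± 0.21 (95% interval -0.65 to 0.34, adjusted p = 0.777) was 0.07 without CD133- replicate 3 and -0.34 without CD133- replicate 2. The interval does not exclude a change of moderate size in either direction.

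The class 3 enzymes act on medium and long-chain aldehydes. Aldh3a1, a cytosolic enzyme abundant in the cornea and stomach that removes lipid peroxidation products, had 11.08, 11.11 and 11.17 in CD133+ and 11.19, 11.07 and 11.16 in CD133- cells. The groups overlapped, at 18.8 to 24.2 times background, and the difference was -0.02 ± 0.08 (95% interval -0.21 to 0.17, adjusted p = 0.928). Its neighbour on mouse chromosome 11, Aldh3a2, encodes the fatty aldehyde dehydrogenase of the endoplasmic reticulum.

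Both RefSeq probes of Aldh3a2 were detected on every array. ILMN_2925350 had 9.73, 9.56 and 9.64 in CD133+ and 9.74, 9.63 and 9.71 in CD133- cells, and ILMN_2456946 had 8.99, 8.89 and 8.89 in CD133+ and 8.79, 8.98 and 8.87 in CD133- cells. The differences were -0.05 ± 0.09 (adjusted p = 0.836) and 0.04 ± 0.09 (adjusted p = 0.859), with groups that overlapped. The intervals were -0.25 to 0.16 and -0.16 to 0.25. The other 2 Aldh3a2 probes, both designed on cDNA clones, were detected on 0 arrays (ILMN_1258695) and on 1 CD133- array (ILMN_2584281, 5.07 on replicate 2 beside 4.36 and 4.29 on the other CD133- arrays).

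Aldh3b1, which oxidises lipid-derived aldehydes at membranes, was detected on all 6 arrays by each of its 3 probes. ILMN_2645793 had 8.81, 9.00 and 8.67 in CD133+ and 8.60, 8.74 and 8.82 in CD133- cells. ILMN_2953513 had 7.65, 7.81 and 7.61 in CD133+ and 7.34, 7.56 and 7.70 in CD133- cells, and its difference of 0.16 ± 0.12 (95% interval -0.11 to 0.43) was the largest positive one among the tested ALDH probes. The groups overlapped on each probe. The other differences were 0.11 ± 0.11 for ILMN_2645793 and -0.10 ± 0.14 for the dim ILMN_2953515 (5.55, 5.97 and 5.93 in CD133+, 5.97, 5.73 and 6.06 in CD133- cells). The adjusted p-values of the 3 probes lay between 0.544 and 0.776.

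Aldh7a1, the lysine-catabolising enzyme also called antiquitin, was not detected on any array by its single probe. It had 4.69, 4.53 and 4.50 in CD133+ and 4.22, 4.45 and 4.39 in CD133- cells. The CD133+ values lay above the CD133- values by a gap of 0.06, all of them at background, so no fold is given. In a test of all 45281 probes its adjusted p was 0.525.

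**Figure D4:**
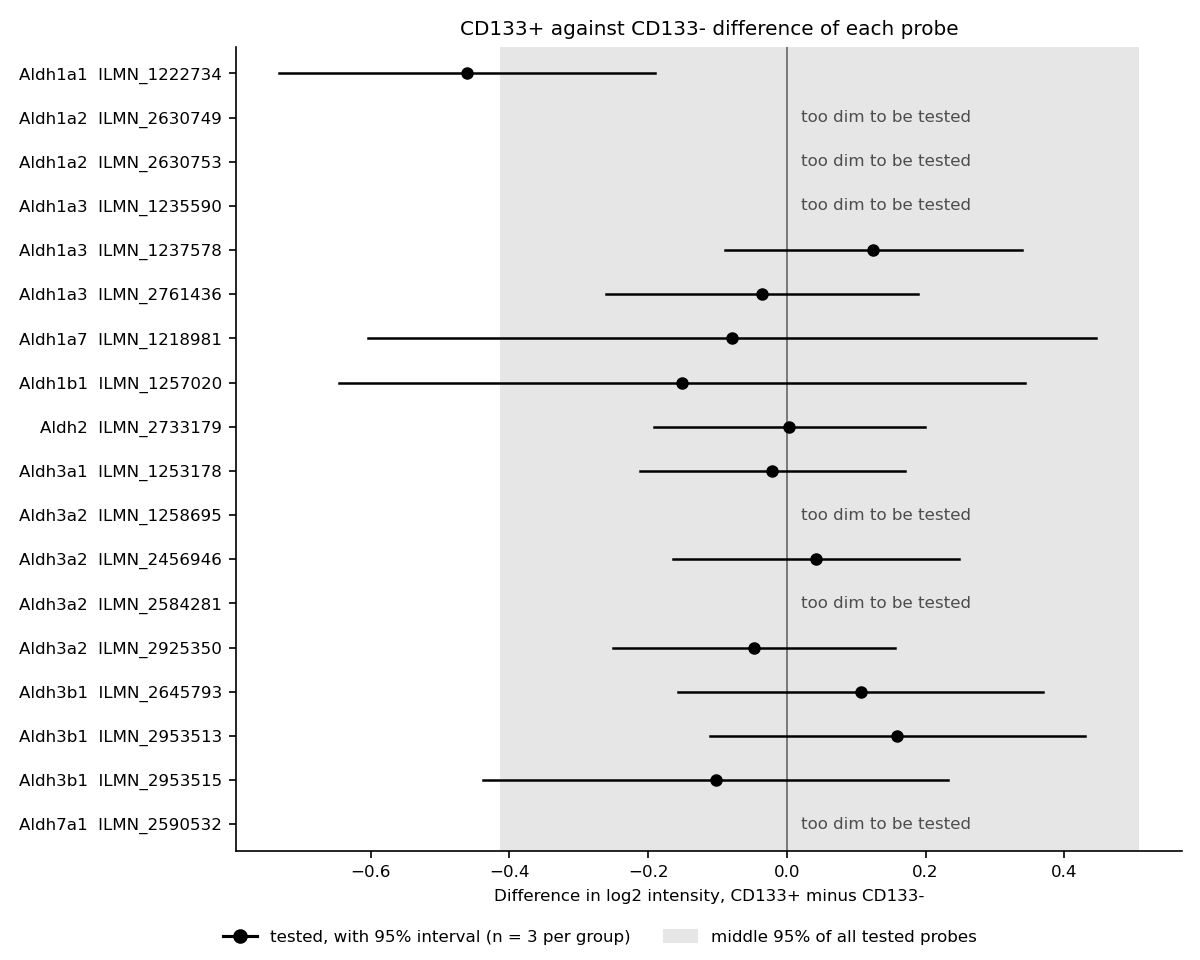
Difference in log2 intensity (x axis, CD133+ minus CD133-) of each ALDH probe, with the 95% interval of the fit (n = 3 per group) for the 12 tested probes. The 6 that were too dim are named without a value. The grey band holds the middle 95% of all tested probes, -0.41 to 0.51. Aldh1a1 is the 1 tested probe whose interval excludes 0 before adjustment, at -0.46.

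Apart from Aldh1a1, the 11 tested ALDH probes lay between -0.15 and 0.16, and their smallest unadjusted p by limma was 0.209. The smallest absolute difference that passed anywhere on the array was 0.42. Probes of the same ALDH gene were also tested for unequal differences, with limma's diffSplice over 3616 genes with at least 2 tested probes. The adjusted p was 0.557 for Aldh1a3, 0.756 for Aldh3a2 and 0.663 for Aldh3b1, so 0 of 3 genes passed, where 4.48% of all such genes did. At an unadjusted p under 0.05 there were also 0 of 3, the smallest being 0.235 by diffSplice for Aldh1a3. With the probes of each gene averaged, 0 of 8 ALDH genes passed, and the differences were 0.04 for Aldh1a3, -0.0027 for Aldh3a2 and 0.05 for Aldh3b1.

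Over the 6 arrays, the genes whose tested probes followed the Aldh1a1 probe most closely were Slco2a1, a prostaglandin transporter (Pearson r = 0.9996), Ankra2 (r = 0.996) and the cytokine Il24 (r = 0.994). They are a description of 6 arrays that share the 2 populations, and 94 tested probes had an r of at least 0.95. None of the 3 genes passed, with differences of -0.36, -0.24 and -0.43.

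The remaining ALDH genes, which serve amino acid, folate and energy metabolism, also held none that passed. All 10 had a probe, 6 were tested on their brightest probe, and 0 passed, where 1.13% of all 9430 genes tested in this way did. All 6 had a negative difference, as did 5515 of all 9430 genes, and their median was -0.13, beside -0.03 over all tested genes. On these probes the smallest p-values belonged to Aldh18a1, the first enzyme of proline synthesis, with -0.14 ± 0.08 (adjusted p = 0.448), and to Aldh16a1 with -0.24 ± 0.17 (adjusted p = 0.520). Of 3 dimmer tested probes of these genes, that of Aldh5a1, an enzyme of GABA breakdown, had the smallest p of all 9 probes (-0.29 ± 0.08, unadjusted p = 0.00829, limma adjusted p = 0.139). Its groups did not overlap, as for 23.1% of all tested probes. The dimmer probes of Aldh4a1 and Aldh1l2 had -0.24 ± 0.12 (adjusted p = 0.364) and 0.20 ± 0.19 (adjusted p = 0.665), and their groups overlapped.

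The retinoid pathway upstream and downstream of the class 1A enzymes had 16 tested genes of 30 with a probe, and 0 passed. On the brightest probe of each gene, 3 were higher and 0 lower at an unadjusted p under 0.05, where 14.7% of all genes reached that level in either direction. The median difference was 0.02. Dimmer probes of Rarb (-0.39 ± 0.14, adjusted p = 0.231), Rxrb (-0.24 ± 0.10, adjusted p = 0.281) and Rdh11 (-0.24 ± 0.09, adjusted p = 0.266) were lower at that level, each without overlap, so over all 23 tested probes it was 3 higher and 3 lower. Rara, the retinoic acid receptor alpha, had 5.28, 5.50 and 5.32 in CD133+ and 4.73, 4.91 and 5.05 in CD133- cells, without overlap (0.47 ± 0.11, adjusted p = 0.0985). Stra6, the cell-surface receptor that takes up retinol from its plasma carrier, had 5.08, 5.39 and 5.07 in CD133+ and 4.96, 4.38 and 4.56 in CD133- cells, also without overlap (0.55 ± 0.16, adjusted p = 0.159). Both probes were near background, with detection on 2 of 3 CD133- arrays for Rara and 1 of 3 for Stra6, and over 16 other settings the differences ranged from 0.13 to 0.56 and from 0.17 to 0.70. The third higher gene, Rbp2, had 0.50 ± 0.17 (adjusted p = 0.193), and its groups overlapped. Its probe was detected on 3 CD133+ arrays and 1 CD133- array. The other tested Rbp2 probe had -0.18 ± 0.12 (adjusted p = 0.517). Without their CD133+ arrays neither Stra6 nor Rbp2 would have met the filter, and their CD133- values were partly at background.

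Of 14 tested genes for other routes of aldehyde clearance, by reduction or conjugation, 1 passed, where 1.13% of all genes did. Over the 4 lists of related genes it was 1 of 41. Akr1c12, an aldo-keto reductase, had 11.88, 11.86 and 11.83 in CD133+ and 11.46, 11.31 and 11.44 in CD133- cells. The groups did not overlap, and Akr1c12 rose by 0.45 ± 0.08 (95% interval 0.26 to 0.64, adjusted p = 0.0493). It missed the threshold in 9 of 17 other settings, among them a median shift (0.39, adjusted p = 0.0771), a test of all probes (adjusted p = 0.0865) and each fit without 1 of the 6 arrays (adjusted p of 0.119 to 0.143), and it passed in the other 8. The Akr1c genes are similar in sequence, so this signal may be shared among them and cannot be told apart here. The other 13 genes did not pass, and the list's median difference was -0.05. At an unadjusted p under 0.05 by limma, 2 of the 14 were higher and 1 lower, where 14.7% of all genes reached that level in either direction. Besides Akr1c12 these were Adh5 (0.36 ± 0.08, adjusted p = 0.0870, without overlap) and Akr1b8 (-0.27 ± 0.11, adjusted p = 0.285). A dimmer probe of Akr7a5 was also lower at that level (-0.24 ± 0.08, adjusted p = 0.218), without overlap.

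The dye of the stem cell assay is retained only when ABC transporters do not export it, and 5 of 8 such transporter genes were tested. None passed, and 0 reached an unadjusted p under 0.05. Abcc3 had 0.18 ± 0.09 (adjusted p = 0.383) and Abcc4 -0.12 ± 0.08 (adjusted p = 0.518) by limma. The median over the 5 genes was -0.11, beside -0.03 over all tested genes.

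**Figure D5:**
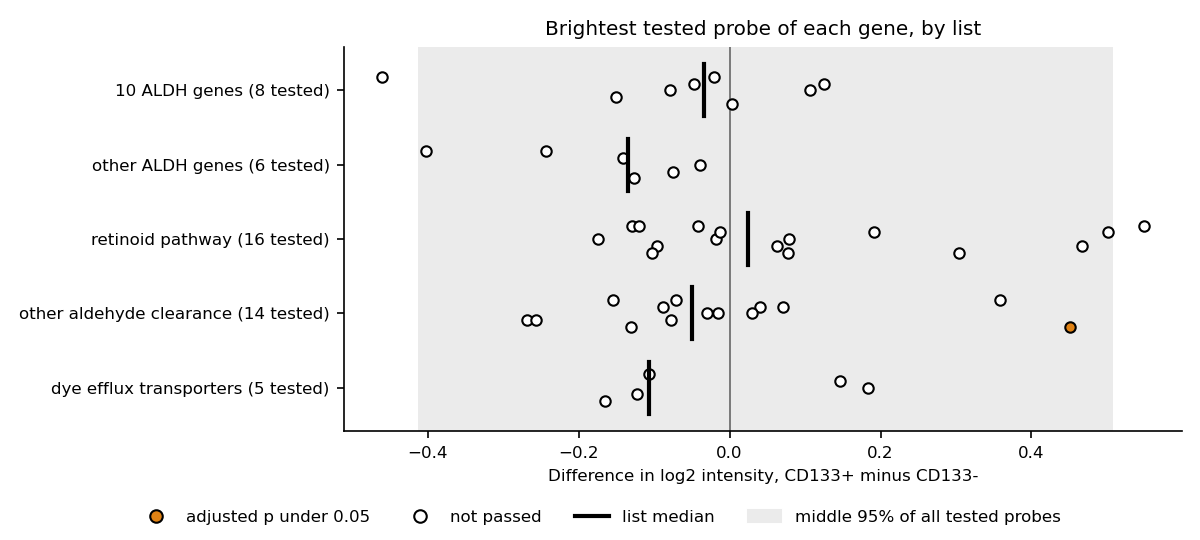
Difference in log2 intensity (x axis, CD133+ minus CD133-) of the brightest tested probe of each gene, for the 10 ALDH genes and the lists of related genes, with the list median as a bar. The grey band holds the middle 95% of all tested probes. Akr1c12 (orange, 0.45) is the 1 gene that passed, and the medians lie between -0.13 and 0.02.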

How the data were processed

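The deposited table holds, per the file headers, a mean bead intensity, a detection p-value, a bead standard error and a bead number for each of 45281 probes and 6 arrays. The deposited intensities are linear and neither background-subtracted nor normalized, as their values show. The authors' second table holds intensities on a linear scale with a rank correlation of 1 to the first, ratios of 0.852 to 1.105 and medians of 118.7 to 120.5. Genes were not centred there, and the method, slide and scan date are not given in the sources used.

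Intensities were corrected with limma 3.58.1 in R 4.3.3 (neqc, offset 16, with negative controls taken from detection p-values). For dim probes such as Aldh1a1 this gives larger differences than uncorrected values, and a larger offset smaller ones. Probes detected (p under 0.05) on 3 or more of 6 arrays were tested with lmFit and eBayes, two-sided, without covariates, and adjusted by Benjamini-Hochberg over 17219 probes. Intervals are 95% intervals of this fit. DiffSplice assumes an equal spread among the probes of a gene. The steps were tested on simulated arrays, where 22346 probes were tested and the changed probes were drawn from the brighter ones. Of 100 probes changed 1.5-fold 5 passed, and of 100 changed 2-fold 66 passed. Most changes of 1.5-fold were thus missed. Probes as dim as those of Aldh1a1, Aldh1a7 and Aldh1b1, or as ILMN_2953515 of Aldh3b1, were not among the changed ones, so these counts do not cover them. Symbols came from the platform annotation, and all 10 ALDH symbols matched a RefSeq table (GRCm38.p6) by gene identifier. List genes are shown by their brightest tested probe. Named were all 10 ALDH genes, Prom1, and from each related list the genes that passed (up to 4) or else the 2 with the smallest p. Fcer1g, Krt8, Krt18, Krt19, Ptprc, Pdgfra, Dcn, Col1a1, Acta2, Eng, Aldh5a1, Aldh4a1, Aldh1l2, Rarb, Rxrb and Rdh11 were chosen after their values were seen. So were Cdh1, Epcam, Egfl7, Kdr, Esam, Rbp2, Adh5, Akr1b8 and Akr7a5. The members and lists were chosen with earlier results of these data known. Probe and protein sequences were not used here. Precision is limited by having 3 arrays per group: the median standard error over all tested probes was 0.11.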

Additional observations from a re-analysis of the deposited data

How the results depend on the processing

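The count of 0 ALDH probes that passed was the same in all 17 other settings, and the differences of the ALDH genes were small enough that their sign often moved around 0. With a median shift the differences were 0.022 for Aldh1a7, -0.027 for Aldh2 and -0.018 for ILMN_2456946 of Aldh3a2. With 1 array left out, sign changes occurred for Aldh2 (-0.040 to 0.030 over the 6 fits), ILMN_2761436 of Aldh1a3 (-0.076 to 0.029), Aldh1a7 (-0.36 to 0.10), Aldh1b1 (-0.34 to 0.072), Aldh3a1 (-0.056 to 0.0041), ILMN_2456946 of Aldh3a2 (-0.0023 to 0.093) and ILMN_2953515 of Aldh3b1 (-0.20 to 0.031). Over all probes, the 264 that passed became 1110 without background correction, 664 with an offset of 50, 1157 with the authors' intensities, 113 without a filter on dim probes, 555 with detection at 0.01 on all arrays, 1096 with robust estimation and a variance trend, and 7 to 14 with 1 array left out. The 1 gene that passed in the related lists became 3 without background correction, with the authors' intensities and with a variance trend, 2 with an offset of 50 and with the stricter detection, and 0 with a median shift, without a filter and with 1 array left out. The settings without a filter and with stricter detection test 45281 and 13339 probes in place of 17219, and leaving out 1 array leaves 5 arrays. For the others the cause was not tested. Of the probes that passed, 216 were higher and 48 lower in CD133+ cells, against 748 and 362 without background correction and 836 and 321 with the authors' intensities. Same-numbered arrays did not deviate together (correlations of 0.0018 to 0.020). Under a replicate block, 6 probes, 0 ALDH probes and 0 list genes passed, with an adjusted p of 0.159 for Aldh1a1 and 0.132 for Akr1c12. The settings for single genes of the related lists were chosen after the data were seen. Signal over background limits what can be said of Aldh1a2, Aldh1a7, Aldh1b1 and Aldh7a1.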
